A study of Mus musculus with 6 samples.

Results

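The genes described here are 10 genes known from the progenitors that seed the thymus: Meis1, Hoxa9, Hhex, Lmo2, Lyl1, Spi1, Erg, Bcl11a, Mef2c and Cd34. They were taken by name from the mRNA table, where each name matched 1 gene, out of 21954 genes in all, and their positions are given on the mouse build GRCm38. Of the 10, 9 encode transcription factors or their cofactors and Cd34 encodes a surface protein. RNA was sequenced from whole thymus of C57BL wild-type mice aged 5 weeks. The irradiated group (3 libraries) had received 6 Gy of X-rays and was collected 24 h later, and the control group (3 libraries) had received none. No mutant allele, transgene or sorted cell population was involved. The labels give 3 mice per group but tie no library to a mouse, so the p-values below speak of the spread between libraries, which may be technical.

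The thymus holds no long-lived blood stem cells of its own and is seeded by rare progenitors that arrive from the bone marrow through blood vessels. These cells still carry the transcription factors of blood stem and multipotent progenitor cells, among them Spi1 (PU.1), Bcl11a, the Lmo2 and Lyl1 complex, Erg, Meis1, Hoxa9, Hhex and Mef2c. Under Notch signalling this programme is shut off while Tcf7, Gata3 and Bcl11b come on, and the cell becomes committed to the T lineage. Most of these factors are not restricted to progenitors. Macrophages and dendritic cells use Spi1, blood vessels use Erg, Lyl1 and Cd34, B cells use Bcl11a and Mef2c, and several are expressed in stroma.

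Of the 10 genes, 9 passed the filter of a mean of 0.5 FPKM over the 6 libraries, and all 9 rose in irradiated thymus by limma's moderated test (adjusted p under 0.05 over 14001 genes), and 5 of the 9 after quantile normalization. FPKM counts a gene's fragments per length of transcript and per size of library, so levels can be set side by side between genes. Among all genes tested, 42.4% were called higher and 20.9% lower, so a call in the upward direction was common in this comparison. The median log2 fold change was 2.50 over the 9 genes and 0.40 over all genes tested. Hoxa9 lay near 0 in every library and was not tested. For Hhex the control mean was under 0.5 FPKM, so Hhex passed the filter only through its irradiated libraries. In bulk tissue, a larger or smaller share of a cell type and more or less RNA per cell cannot be told apart.

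Depth was estimated at 24400000 to 25600000 fragments in irradiated libraries and 21900000 to 23200000 fragments in control libraries, at which 1 fragment on 1 kb of transcript was worth 0.0391 to 0.0456 FPKM. Irradiated libraries resembled each other less (Pearson's r across genes of 0.824 to 0.931) than control libraries did (0.979 to 0.985), with genes not being independent replicates. Irradiated replicate 1 correlated with the control libraries at 0.807 to 0.815, nearly as high as with irradiated replicate 2 (0.824), and irradiated replicate 2 correlated with the control libraries at 0.619 to 0.622. Markers of double-positive thymocytes, the most numerous thymocytes, summed to 113 to 184 FPKM in irradiated thymus and 2215 to 2548 FPKM in control thymus, and 11 of 12 fell. Irradiated replicate 2 stood apart in markers of airway and muscle: its airway markers summed to 3607 FPKM, against 111 and 132 FPKM in the other irradiated libraries and 12.9 to 16.1 FPKM in control libraries, and its skeletal muscle markers summed to 169 FPKM, against 7.09 and 37.0 FPKM in the other irradiated libraries and 6.56 to 7.28 FPKM in control libraries. It was also the highest in mast cell, megakaryocyte and erythroid markers, at 1025 FPKM against 16.0 and 199 FPKM in the other irradiated libraries, and in neutrophil markers, at 416 FPKM against 42.6 and 166 FPKM. Of the airway markers 6 of 7 tested rose and of the muscle markers 6 of 8, and 0 fell. The shares to set beside the counts of these lists, over all genes tested, were 42.4% higher and 20.9% lower. Without irradiated replicate 2, 8 of the 9 tested genes were called higher, with Mef2c the exception. How many genes are higher or lower depended on the scaling between libraries: 5933 were higher and 2920 lower as deposited, 4655 and 4558 after median-ratio scaling, and 3501 and 4403 after quantile normalization.

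**Figure D1:**
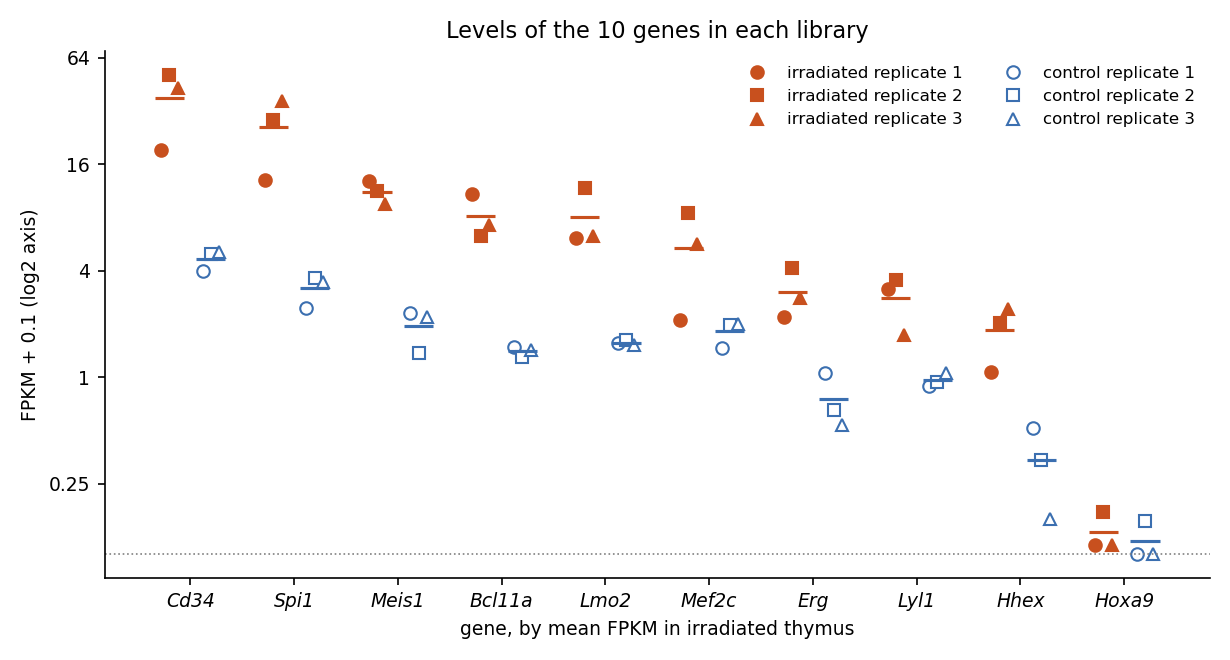
Level of each of the 10 genes in every library, as FPKM + 0.1 on a log2 axis, ordered by mean level in irradiated thymus. Filled symbols are the 3 irradiated libraries and open symbols the 3 control libraries, bars are group means and the dotted line marks 0 FPKM. Apart from Hoxa9, every gene's irradiated libraries lie above its control libraries, with the narrowest gap for Mef2c.

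Meis1 and Hoxa9 are homeodomain partners: Meis1 binds DNA together with Pbx and Hox proteins, and the pair is known from blood stem cells and from leukaemia. Meis1 (chr11:18879817-19018985, minus strand) had 12.8, 11.1 and 9.41 FPKM in irradiated thymus, against 2.20, 1.27 and 2.08 FPKM in control thymus. The groups were far apart, and each irradiated library was well above the highest control library. The log2 fold change of Meis1 was 2.55 ± 0.25 (SE, n = 3 per group), with an adjusted p of 0.000218 from limma. Hoxa9 (chr6:52223100-52227370, minus strand) had 0.0126, 0.0727 and 0.0127 FPKM in irradiated libraries and was listed at 0, 0.0534 and 0 FPKM in control libraries. These values overlapped and lay at the level of a few fragments, so a change in Hoxa9 was not detectable at this depth. Without the filter on low values, limma gave Hoxa9 a log2 fold change of 0.17 with an adjusted p of 0.604, and the authors' deposited table gives 0.51 with an adjusted p of 0.854. Meis1 RNA thus stood at about 11 FPKM in irradiated tissue that held almost no RNA of this Hox gene.

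Hhex is a homeobox repressor needed in early lymphoid progenitors and also expressed in vessels and liver. The gene (chr19:37434810-37440731, plus strand) had 0.966, 1.92 and 2.32 FPKM in irradiated thymus and 0.416, 0.240 and 0.0583 FPKM in control thymus. All irradiated values were above all control values, and the control values spread widely for so low a level. The log2 fold change of Hhex was 2.52 ± 0.56 (SE, n = 3 per group), with an adjusted p of 0.00644 from limma.

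Lmo2 and Lyl1 act in a shared complex. Lmo2 is a LIM-only bridge protein without DNA binding of its own, Lyl1 is a basic helix-loop-helix factor related to Tal1, and either can drive T cell leukaemia when misexpressed. Lmo2 (chr2:103957986-103981878, plus strand) had 6.00, 11.7 and 6.20 FPKM in irradiated thymus, against 1.46, 1.52 and 1.42 FPKM in control thymus. The control libraries were nearly equal, and irradiated replicate 2 was the highest by a wide margin. Its log2 fold change was 2.29 ± 0.28 (SE), with an adjusted p of 0.000545 from limma. Lyl1 (chr8:84701449-84704940, plus strand) had 3.03, 3.44 and 1.62 FPKM in irradiated thymus and 0.791, 0.834 and 0.953 FPKM in control thymus. The groups did not overlap, and irradiated replicate 3 was the lowest of its group. The log2 fold change of Lyl1 was 1.48 ± 0.33 (SE), with an adjusted p of 0.0067 from limma, and under quantile normalization it was 0.15 with an adjusted p of 0.729. By the coordinates in the table, the 3′ end of Lyl1 overlaps Nfix on the opposite strand by 229 bp. Of the 4 Lyl1 transcript lines, 1 was found in GENCODE M21 and 0 had the same start and end there, so the Lyl1 position rests on the deposited table. Nfix had 27.1, 58.6 and 46.7 FPKM in irradiated libraries and 4.98, 6.17 and 5.77 FPKM in control libraries, and whether strand was used in counting is not given in the sources used here, so reads of both genes cannot be told apart there and the Lyl1 value is uncertain. The lncRNA table also lists an Nfix transcript that spans all of Lyl1, at 0.822, 0 and 0.272 FPKM in irradiated libraries and 0.687, 0.186 and 0.766 FPKM in control libraries.

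Spi1 and Erg carry ETS DNA-binding domains. Spi1 (PU.1) is high in early thymic progenitors and is the central factor of macrophages and granulocytes, while Erg is used by blood stem cells and by endothelium. Spi1 (chr2:91082390-91115756, plus strand) had 13.0, 28.2 and 36.2 FPKM in irradiated thymus, against 2.37, 3.53 and 3.37 FPKM in control thymus. The lowest irradiated library was still well above the highest control library. The log2 fold change of Spi1 was 2.92 ± 0.38 (SE, n = 3 per group), with an adjusted p of 0.000648 from limma. Erg (chr16:95359169-95586593, minus strand) had 2.08, 4.04 and 2.69 FPKM in irradiated libraries and 0.954, 0.550 and 0.438 FPKM in control libraries, with no overlap. Its log2 fold change was 2.03 ± 0.37 (SE), with an adjusted p of 0.00293 from limma.

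Bcl11a is a zinc-finger repressor of progenitors, B cells and plasmacytoid dendritic cells, whose close relative Bcl11b is switched on at T cell commitment. The gene (chr11:24078056-24174123, plus strand) had 10.8, 6.19 and 7.14 FPKM in irradiated thymus, against 1.39, 1.20 and 1.32 FPKM in control thymus. Irradiated replicate 1, which was the lowest of its group for Lmo2, Spi1, Cd34, Erg, Hhex and Mef2c, was the highest for Bcl11a. Bcl11a rose by 2.50 ± 0.25 (log2, SE), with an adjusted p of 0.000225 from limma. Mef2c is a MADS-box factor of lymphoid progenitors, B cells, muscle and vessels. The gene (chr13:83504034-83667080, plus strand) had 2.02, 8.34 and 5.55 FPKM in irradiated thymus and 1.36, 1.88 and 1.91 FPKM in control thymus. Irradiated replicate 1 was barely above the highest control library, and the other irradiated libraries were clearly above it. Mef2c rose by 1.37 ± 0.49 (log2, SE), with an adjusted p of 0.0423 from limma, and the authors' deposited table gives 0.90 with an adjusted p of 0.159. The call was lost in 8 of 14 alternative settings: under quantile normalization, under median-ratio scaling, without the filter, and without irradiated replicate 2 or 3 or any of the control replicates (adjusted p of 0.0600 to 0.495 from limma).

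Cd34 is a sialomucin on the surface of blood progenitors and of endothelium. The gene (chr1:194938819-194961279, plus strand) had 19.2, 51.2 and 43.1 FPKM in irradiated thymus and 3.86, 4.87 and 4.98 FPKM in control thymus. Every irradiated library was above every control library, and irradiated replicate 1 was the lowest of its group. The log2 fold change of Cd34 was 2.91 ± 0.36 (SE, n = 3 per group), with an adjusted p of 0.000523 from limma.

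By mean level in irradiated thymus, Cd34 (37.9 ± 16.6 FPKM, SD, n = 3) and Spi1 (25.8 ± 11.8 FPKM) were the highest of the 10 genes. They were followed by Meis1 (11.1 ± 1.69 FPKM), Bcl11a (8.05 ± 2.44 FPKM), Lmo2 (7.95 ± 3.21 FPKM) and Mef2c (5.302 ± 3.17 FPKM), then by Erg, Lyl1 and Hhex at means of 2.93, 2.70 and 1.74 FPKM. Libraries of neighbours in this order overlapped except between Spi1 and Meis1 and between Hhex and Hoxa9. In control thymus the order was Cd34 (4.57 ± 0.62 FPKM, SD, n = 3), Spi1 (3.09 ± 0.63 FPKM), Meis1 (1.85 ± 0.51 FPKM), Mef2c (1.71 ± 0.31 FPKM), Lmo2 (1.47 ± 0.05 FPKM), Bcl11a (1.30 ± 0.10 FPKM), Lyl1, Erg and Hhex. There Meis1 overlapped Mef2c, Mef2c overlapped Lmo2 and Lyl1 overlapped Erg, and the other neighbours did not overlap. The ratio of group means ran between 3.09 for Mef2c and 8.34 for Spi1. All 9 tested genes had every irradiated library above every control library, as did 46.1% of all genes tested.

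The irradiated libraries did not raise the 9 genes in 1 common pattern. Relative to the control mean on the log2(FPKM + 0.1) scale, Bcl11a stood at 2.96, 2.17 and 2.37 and Meis1 at 2.76, 2.57 and 2.32 in irradiated replicates 1, 2 and 3, so replicate 1 was the highest for both. Cd34 stood at 2.06, 3.47 and 3.22, Spi1 at 2.06, 3.17 and 3.53 and Mef2c at 0.24, 2.23 and 1.65, so replicate 1 was the lowest for these. The median over endothelial markers was 2.14, 4.05 and 3.72 in the same libraries, that over macrophage markers 2.30, 2.86 and 2.91, that over fibroblast markers 2.56, 3.05 and 2.90, and that over B cell markers -1.27, 0.35 and 0.27. Replicate 1 was thus the lowest irradiated library for all 4 of these marker lists, and for neither Bcl11a nor Meis1.

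**Figure D2:**
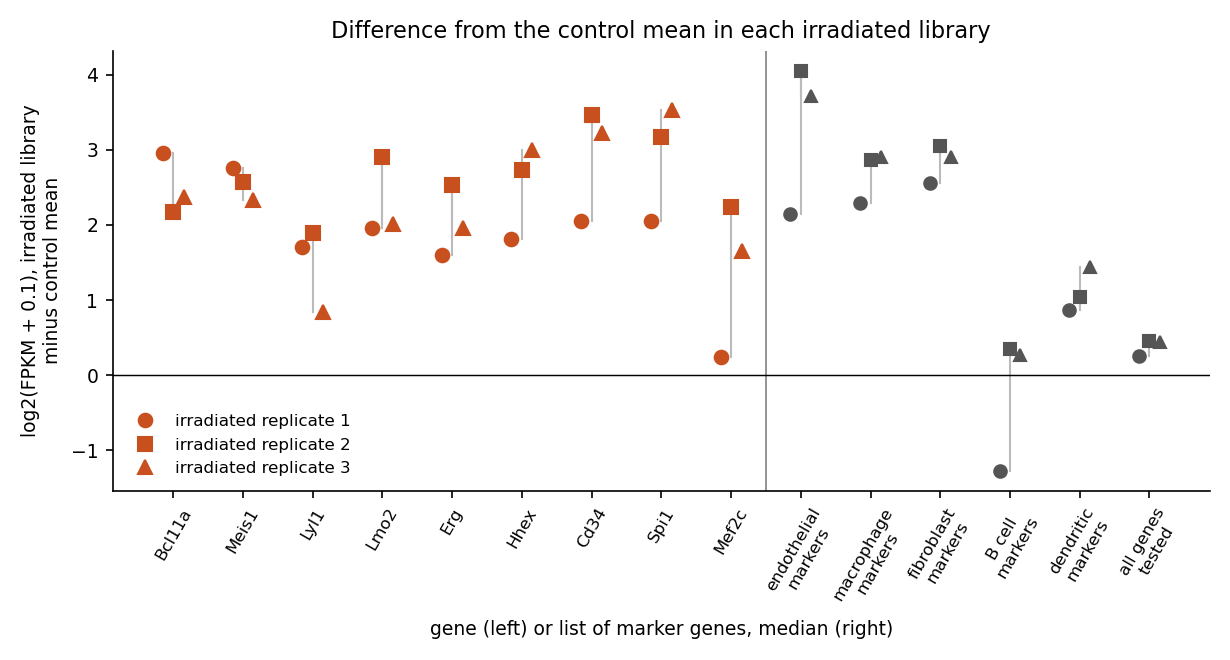
Difference of each irradiated library from the control mean, on the log2(FPKM + 0.1) scale, for the 9 tested genes (left) and as the median over lists of marker genes and over all genes tested (right). Circles, squares and triangles are irradiated replicates 1, 2 and 3, and replicate 1 is the highest for Bcl11a (2.96) and Meis1 (2.76) and the lowest for Mef2c (0.24) and the B cell markers (-1.27).

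The median over all genes tested was 0.40 as deposited, 0.31 after scaling to equal summed FPKM, 0.02 after median-ratio scaling and -0.07 after quantile normalization, and the median over the 9 genes lay 2.10, 2.10, 2.11 and 1.53 above it. Meis1, Bcl11a, Lmo2, Spi1 and Cd34 kept their calls in all 14 alternative settings, with Meis1, Bcl11a and Lmo2 at 1.87, 1.64 and 1.46 under quantile normalization. In that setting the calls of Lyl1, Erg, Hhex and Mef2c were lost, with log2 fold changes of 0.15, 0.70, 0.96 and 0.46.

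Promoter sequences are shown for the genes among the 10 whose window around the first listed start site holds the core motif of a member's protein family. RefSeq windows on GRCm38.p6 (250 bases before to 50 bases after the start) were found for 8 of the 10 genes, 12 windows in all, and Spi1 and Lmo2 had no entry. Capitals mark the motif: GGAAGT, the core read by ETS factors such as Spi1 and Erg (in these windows as its reverse complement ACTTCC), or CANCTG, the E-box read by helix-loop-helix factors such as Lyl1. The Meis1 window is chr11:19018920-19019219 on the minus strand, the Mef2c window chr13:83503784-83504083 on the plus strand and the Lyl1 window chr8:84701207-84701506 on the plus strand. All are written 5′ to 3′ on the gene's strand.
Meis1 promoter: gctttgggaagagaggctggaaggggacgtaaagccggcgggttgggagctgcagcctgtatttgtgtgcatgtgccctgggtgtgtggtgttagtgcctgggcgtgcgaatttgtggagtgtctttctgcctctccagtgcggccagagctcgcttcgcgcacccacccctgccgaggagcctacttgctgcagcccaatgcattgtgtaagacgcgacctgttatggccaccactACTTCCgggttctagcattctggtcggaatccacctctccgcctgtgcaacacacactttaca
Mef2c promoter: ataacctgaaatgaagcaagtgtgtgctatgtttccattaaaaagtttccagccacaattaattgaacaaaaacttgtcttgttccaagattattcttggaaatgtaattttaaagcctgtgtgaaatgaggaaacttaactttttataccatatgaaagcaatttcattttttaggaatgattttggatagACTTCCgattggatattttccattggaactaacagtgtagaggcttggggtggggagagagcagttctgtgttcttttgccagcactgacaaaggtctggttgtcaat
Lyl1 promoter: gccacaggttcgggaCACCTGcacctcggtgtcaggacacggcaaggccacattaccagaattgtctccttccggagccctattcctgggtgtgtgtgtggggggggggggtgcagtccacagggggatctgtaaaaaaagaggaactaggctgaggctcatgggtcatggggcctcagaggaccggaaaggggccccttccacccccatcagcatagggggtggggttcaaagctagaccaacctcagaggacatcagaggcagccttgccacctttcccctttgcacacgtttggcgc

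Searched on both strands, GGAAGT occurred in 2 of the 12 windows, those of Meis1 at -13 and of Mef2c at -58 from the start, and in 23.8% of the 32851 promoter windows of all genes. CANCTG occurred in 3 of the 12, in Lyl1 at -235 and in 1 further window each of Mef2c and Erg, and in 51.4% of all windows. The letters AGATAA, read by Gata factors, occurred in 1 of the 12 and 11.2% of all windows. The letters TGACAG, read by Meis factors, occurred in 1 of the 12 and 19.2% of all windows. Both lay in the third window of Erg. A match is a description of the letters in these windows and not evidence of binding.

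Close relatives of the 10 genes moved in both directions. Of 17 relatives, 13 were tested, 4 rose and 6 fell, and their median log2 fold change was 0.11, against 0.40 over all genes tested. Of all genes tested, 42.4% were called higher and 20.9% lower. Bcl11b moved against Bcl11a. This gene, which marks commitment to the T lineage, had 26.7, 12.4 and 18.8 FPKM in irradiated thymus and 126, 139 and 154 FPKM in control thymus. All irradiated values were far below the control values, with a log2 fold change of -2.91 (limma adjusted p of 0.000185).

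Meis2, the relative of Meis1 in the TALE homeodomain class, rose with it: it had 29.2, 21.03 and 23.1 FPKM in irradiated libraries and 3.23, 2.80 and 2.76 FPKM in control libraries. Its log2 fold change of 3.01 (limma adjusted p of 5.42e-05) was held in all 14 settings, and like Meis1 it was highest in irradiated replicate 1. Meis3 had 4.88 to 5.52 FPKM in irradiated libraries and 3.82 to 5.91 FPKM in control libraries, which overlapped, and its log2 fold change of 0.11 turned negative under quantile normalization, under median-ratio scaling and without control replicate 1. Mef2a, Mef2b and Mef2d, the other MADS-box factors of the Mef2 family, fell, with log2 fold changes of -0.91, -0.85 and -0.93 (limma adjusted p of 0.00071, 0.0101 and 0.00195). Mef2a was the most abundant of the family, at 30.9 to 34.7 FPKM in irradiated thymus and 60.3 to 61.8 FPKM in control thymus. Among ETS factors related to Erg and Spi1, Fli1 fell (log2 fold change -0.74, limma adjusted p of 0.00541), while Spib rose by 1.10 (limma adjusted p of 0.00615) except under quantile normalization, where its call was lost at 0.50. Spic did not pass, at 3.67 to 9.33 FPKM in irradiated thymus and 3.11 to 3.85 FPKM in control thymus, and its log2 fold change of 0.55 turned negative under quantile normalization.

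Podxl and Podxl2, sialomucins of the Cd34 family, went opposite ways. Podxl, which is expressed in vessels, had 1.51, 8.57 and 10.2 FPKM in irradiated libraries and 0.238, 0.287 and 0.422 FPKM in control libraries. It was lowest in irradiated replicate 1, as Cd34 was, and rose with a log2 fold change of 3.68 (limma adjusted p of 0.00318). With all control libraries under 0.5 FPKM, Podxl passed the filter only through its irradiated libraries. Podxl2 fell by 2.48 on the log2 scale (limma adjusted p of 0.00857), to 0.157 to 1.17 FPKM in irradiated thymus, against 3.28 to 4.42 FPKM in control thymus. Lmo1, which resembles Lmo2, rose by 2.45 (limma adjusted p of 0.00709), against a control mean of 0.134 FPKM, a call lost under quantile normalization, and Lmo4 did not pass (log2 fold change 0.18, negative under median-ratio scaling). Lmo1, too, passed the filter only through its irradiated libraries. Tal1, a close relative of Lyl1, was too low to be tested, at 0.164, 1.29 and 0.933 FPKM in irradiated libraries and 0.0522, 0.0611 and 0.0746 FPKM in control libraries, values that did not overlap.

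**Figure D3:**
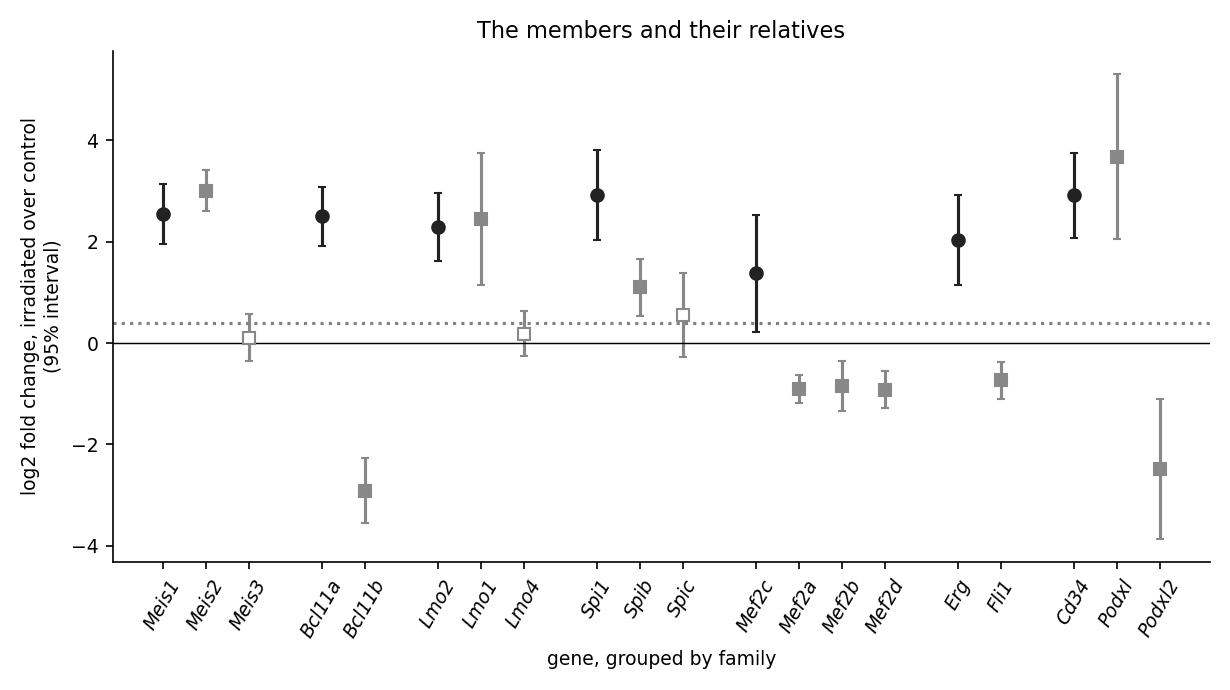
Log2 fold change of irradiated over control with its 95% interval, for the tested members except Lyl1 and Hhex (black circles) beside their tested relatives (grey squares, open where the adjusted p was 0.05 or more). The dotted line is the median of all genes tested (0.40). Bcl11b, Mef2a, Mef2b, Mef2d, Fli1 and Podxl2 lie below 0 while the member of each family lies above it.

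The Hoxa cluster split along its length. In the embryo, Hoxa genes are expressed in an order that follows their position on the chromosome, and Hoxa9 lies in the 5′ part of the cluster together with Hoxa10, Hoxa11 and Hoxa13. Of 9 other genes of the cluster, 5 were tested, 3 rose and 0 fell, and the median log2 fold change was 2.20. The shares over all genes tested were 42.4% higher and 20.9% lower. Hoxa2 had 4.94, 3.97 and 2.99 FPKM in irradiated thymus and 0.252, 0.306 and 0.243 FPKM in control thymus, with a log2 fold change of 3.45 (limma adjusted p of 0.000144). Its control libraries were all under 0.5 FPKM, so Hoxa2 passed the filter only through its irradiated libraries. Hoxa3, which the thymus needs to form, had 3.02, 4.42 and 3.61 FPKM in irradiated thymus and 0.504, 0.601 and 0.450 FPKM in control thymus, with a log2 fold change of 2.60 (limma adjusted p of 0.000247). Both were well separated between the groups, and both calls were held in all 14 settings, with Hoxa2 at 2.09 under quantile normalization.

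Hoxa4 rose as well, by 2.20 (limma adjusted p of 0.00444), but lost its call under quantile normalization. Like Hoxa2, it passed the filter only through its irradiated libraries. Hoxa5 did not pass (1.21, adjusted p of 0.163 from limma), with 0.425 FPKM in irradiated replicate 1 and 3.65 and 1.80 FPKM in the other irradiated libraries, against 0.462, 0.542 and 0.742 FPKM in control libraries. Without irradiated replicate 1, Hoxa5 passed at 1.99, and under quantile normalization its sign turned to -0.18. Hoxa7 lay the other way, at 0.0966, 0.778 and 0.243 FPKM in irradiated libraries and 0.671, 0.738 and 1.20 FPKM in control libraries. Its log2 fold change of -1.27 did not pass (adjusted p of 0.104 from limma), but it passed at -2.71 under quantile normalization, at -1.59 under median-ratio scaling and at -1.86 without irradiated replicate 2. Hoxa6 was not tested, at 0.101 to 0.266 FPKM in irradiated libraries and 0.317 to 0.410 FPKM in control libraries. Hoxa10, Hoxa11 and Hoxa13 were at or near 0 throughout, like Hoxa9, with no library above 0.107 FPKM. The increase was called for Hoxa2, Hoxa3 and Hoxa4, and no gene of the cluster from Hoxa5 on was called higher with all 6 libraries.

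**Figure D4:**
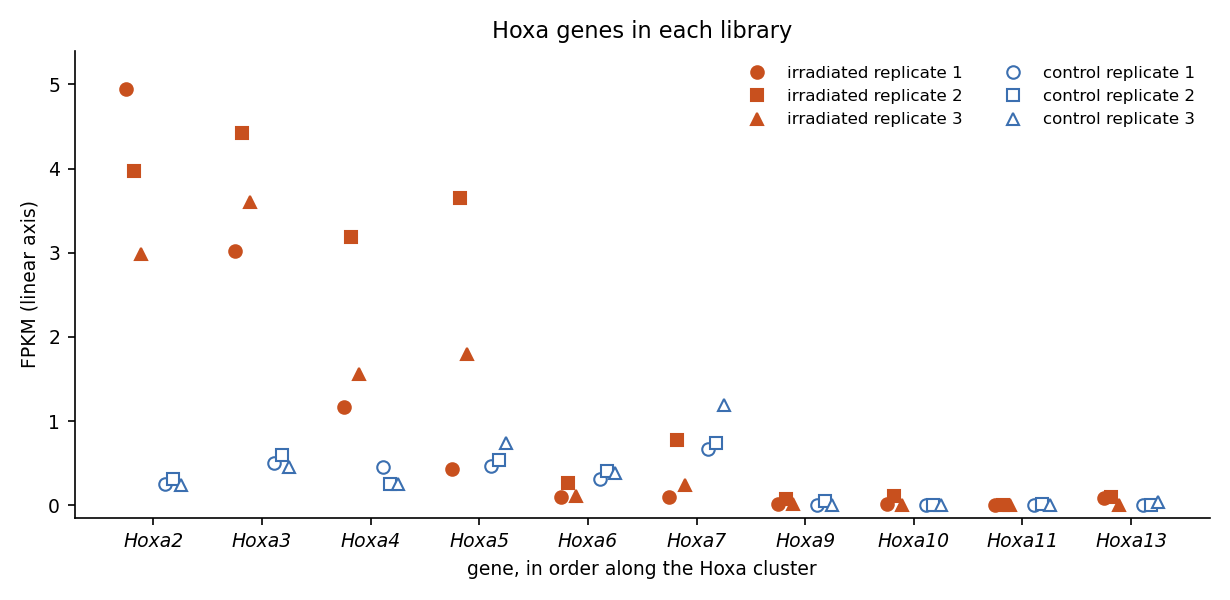
FPKM (linear axis) of Hoxa2 to Hoxa13 in every library, in order along the cluster. Filled symbols are irradiated and open symbols control libraries. Hoxa2 to Hoxa4 lie higher in all 3 irradiated libraries, Hoxa7 lies lower in irradiated replicates 1 and 3 than in every control library, and Hoxa9 to Hoxa13 lie near 0 in both groups.

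Genes for proteins that work in complexes with the transcription factors among the members fell more often than they rose in RNA level. Of 17 such partners, all tested, 4 rose and 9 fell, and the median log2 fold change was -0.79. Over all genes tested, 42.4% were called higher and 20.9% lower. The count of partners called higher was 2 without irradiated replicate 2, under quantile normalization and with the filter of 1 FPKM in 3 libraries. Pbx3, of the family that binds DNA together with Meis and Hox proteins, rose by 2.66 (limma adjusted p of 0.000119), while Pbx4 fell by 2.11 (adjusted p of 0.00126) and Pknox1, a further Pbx partner related to Meis1, fell by 1.10 (adjusted p of 0.000484).

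Around Lmo2 and Lyl1, the E protein gene Tcf12 had 22.9, 21.4 and 23.1 FPKM in irradiated thymus and 81.2, 80.1 and 78.6 FPKM in control thymus. It fell by 1.83 on the log2 scale (limma adjusted p of 6.19e-05), and a second E protein gene, Tcf3, fell by 1.26 (adjusted p of 0.00159). The third, Tcf4, rose by 1.10 (limma adjusted p of 0.00085), so the 3 E protein genes did not move as 1 group. Ssbp2, a stabilizer of the Ldb1 scaffold, fell by 3.02 (limma adjusted p of 6.45e-05), and Cbfb, the partner of Runx1, fell by 1.12 (adjusted p of 0.00108). Gata2, a factor of stem and mast cells, rose by 2.82 (limma adjusted p of 0.0109), with 0.343, 1.99 and 1.24 FPKM in irradiated thymus and 0, 0.0439 and 0.145 FPKM in control thymus, and lost its call under quantile normalization. With such control values, Gata2 passed the filter only through its irradiated libraries. The fourth partner called higher was Gata1 (1.79, limma adjusted p of 0.0327), whose call was lost in 8 of 13 alternative settings. Gata1, too, had a control mean under the filter and passed only through its irradiated libraries. Markers of mast cells, megakaryocytes and erythroid cells, which use both Gata factors, were highest in irradiated replicate 2, as Gata2 was, and Gata1 was highest in irradiated replicate 1 (1.36, 1.05 and 0.978 FPKM in irradiated libraries). Their part in these values was not tested.

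Genes of commitment to the T lineage went against the 9 tested genes. Of 15 such genes, all tested, 2 rose and 12 fell, and the median log2 fold change was -1.82. Over all genes tested, 42.4% were called higher and 20.9% lower. Tcf7, the early target of Notch, had 42.6, 37.5 and 58.5 FPKM in irradiated thymus and 384, 361 and 355 FPKM in control thymus, a log2 fold change of -3.01 (limma adjusted p of 6.95e-05). Myb, Satb1 and the kinase gene Lck fell by 4.38, 4.00 and 2.80 on the log2 scale. The genes that rose were Zbtb7b, the CD4 lineage factor (1.65, limma adjusted p of 0.0038), and Runx3 (0.60, adjusted p of 0.0382), whose call was lost in 7 of 14 settings. Notch1, the receptor itself, did not pass (0.16, adjusted p of 0.321, and -0.23 under median-ratio scaling), at 45.6 to 53.4 FPKM in irradiated thymus and 41.6 to 46.3 FPKM in control thymus.

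Surface markers of early progenitors were mixed. Of 14, 13 were tested, 7 rose and 2 fell, and the median log2 fold change was 0.79. Among all genes tested, 42.4% were called higher and 20.9% lower, with a median of 0.40, so these counts lay near those shares. Cd44, which is also broadly expressed in myeloid cells and stroma, rose by 2.28 (limma adjusted p of 0.000383), Tek by 3.37, Prom1 by 2.71 and Cd93 by 3.08 (adjusted p of 0.00122, 0.00152 and 0.00415), and Tek, the angiopoietin receptor, is also an endothelial marker. Ccr9, the chemokine receptor of thymocytes, had 4.02, 2.29 and 2.77 FPKM in irradiated thymus and 106, 118 and 118 FPKM in control thymus, a log2 fold change of -5.23 (limma adjusted p of 4.86e-05), and Cd27 fell by 3.20 on the log2 scale (limma adjusted p of 7.24e-05). Kit, Flt3, Il7r and Il2ra, the receptors by which thymic progenitors and their first descendants are usually told apart, were singled out after their values were seen. Kit had 4.17, 6.23 and 4.69 FPKM in irradiated thymus and 2.73, 3.02 and 3.56 FPKM in control thymus, which did not overlap. Its log2 fold change was 0.67 (limma adjusted p of 0.0298), and the call was lost in 6 of 14 settings, with the value at -0.09 under quantile normalization. Flt3 did not pass (0.79, limma adjusted p of 0.126), with 1.72 FPKM in irradiated replicate 1, below the control libraries at 1.81 to 1.97 FPKM, and 3.85 and 5.62 FPKM in the other irradiated libraries, and its sign turned under quantile normalization (-0.23). Il7r (0.16, adjusted p of 0.802 from limma) and Il2ra (0.38, adjusted p of 0.285) did not pass, and both were highest in irradiated replicate 1, at 46.5 and 27.6 FPKM. Both signs turned under median-ratio scaling (-0.22 and -0.0030). Without irradiated replicate 1, Il7r was called lower (-0.50, limma adjusted p of 0.0457).

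Markers of other cell types that use members of the group moved unequally: most endothelial, macrophage and stromal markers rose, while fewer of the dendritic and neutrophil markers rose and B cell markers moved in both directions. Their part in the results above was not tested. For comparison with the counts below, 42.4% of all genes tested were called higher and 20.9% lower. Of 16 endothelial markers, 15 rose and 0 fell, and their sum was 74.7 to 226 FPKM in irradiated thymus and 36.8 to 47.0 FPKM in control thymus. Pecam1, which did not pass, made up 75.9% of the control sum, so the other 15 were low there. The median log2 fold change of the list was 3.20, and 2.25 with a pseudocount of 1. For macrophages, 15 of 16 rose and 0 fell, with sums of 1823 to 2294 FPKM in irradiated thymus and 284 to 401 FPKM in control thymus. All 12 fibroblast markers rose, with sums of 547 to 654 FPKM in irradiated thymus and 72.3 to 95.2 FPKM in control thymus, and 10 of 12 thymic epithelial markers rose and 0 fell, with sums of 729 to 996 FPKM in irradiated thymus and 253 to 414 FPKM in control thymus. Dendritic cell markers rose for 6 of 12 and fell for 0, with sums of 164 to 513 FPKM in irradiated thymus and 67.1 to 78.9 FPKM in control thymus. Bst2 alone made up 30.8% of the control sum and most of the sum in irradiated replicates 2 and 3, so these sums largely follow that gene. Of 10 B cell markers, 3 rose and 2 fell, with sums of 19.3 to 47.8 FPKM in irradiated thymus and 18.5 to 23.1 FPKM in control thymus. Neutrophil markers rose for 3 of 10 and fell for 0, with sums of 42.6 to 416 FPKM in irradiated thymus and 45.5 to 118 FPKM in control thymus. Of 10 mast cell, megakaryocyte and erythroid markers, 7 were tested and 4 rose, with sums of 16.0 to 1025 FPKM in irradiated thymus and 14.98 to 38.7 FPKM in control thymus. No marker on any of these lists was at 0 in all 6 libraries.

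Of 16 receptors and factors of myeloid cells that Spi1 is known to control or accompany, 13 rose and 0 fell, and the median log2 fold change was 2.81. By comparison, 42.4% of all genes tested were called higher and 20.9% lower. Fcgr3, an Fc receptor, had 51.7, 48.0 and 63.3 FPKM in irradiated thymus and 4.62, 5.84 and 6.79 FPKM in control thymus. The growth factor receptor gene Csf1r rose by 3.06, Fcgr2b by 3.00 and Cebpb, a partner of Spi1 at myeloid genes, by 2.61 (limma adjusted p of 5.42e-05, 0.000148 and 6.95e-05). Spi1 itself, at 2.92, lay close to the median of this list, and 3 of the genes, Csf1r, Itgam and Fcgr1, are also among the macrophage markers.

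The level of a member relative to the summed markers of a cell type within the same library does not change when a library is scaled by a single factor, but it does under quantile normalization and it depends on the markers that dominate the sum. It was computed for 14 pairs and tested by an exact two-sided permutation test, which cannot go below p = 0.1 with 3 libraries per group, so no pair could pass 0.05. Cd34 was 25.7, 22.7 and 21.3% of the summed endothelial markers in irradiated thymus and 10.4, 13.3 and 10.6% in control thymus, a ratio of 2.04 between geometric means (exact p = 0.1). The groups did not overlap, but this direction rested on Pecam1. That marker did not pass in its own right (24.9 to 41.5 FPKM in irradiated and 27.2 to 36.0 FPKM in control libraries) and made up 75.9% of the control sum. Against the other 15 endothelial markers, a sum chosen after the values were seen, the Cd34 ratio was 0.642 with overlap (exact p = 0.2). Under quantile normalization, with Pecam1 kept in the sum, it was 2.14 without overlap (exact p = 0.1). The direction thus depended on the markers summed, so no rise of Cd34 beyond endothelial markers is claimed. Erg was 2.78, 1.79 and 1.33% of the endothelial sum in irradiated libraries and 2.56, 1.49 and 0.932% in control libraries, which overlapped (exact p = 0.7), and without Pecam1 the ratio of Erg was 0.385, again with overlap (exact p = 0.2).

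Spi1 was 0.712, 1.40 and 1.58% of the summed macrophage markers in irradiated thymus and 0.836, 0.882 and 0.885% in control thymus. The groups overlapped through irradiated replicate 1 (exact p = 0.4). Lyl1 was 0.166, 0.171 and 0.0707% of the macrophage sum in irradiated libraries and 0.279, 0.208 and 0.250% in control libraries. Here the irradiated libraries were lower without overlap, at 0.518 of the control ratio (exact p = 0.1), and it stayed lower without overlap when Lyz2, the most abundant macrophage marker, was left out (0.469) and under quantile normalization (0.185). Against the endothelial sum Lyl1 overlapped (exact p = 0.7), and without Pecam1 it was lower without overlap (0.250, exact p = 0.1). Lmo2 overlapped against both sums (exact p = 0.4 and 0.6), as did Hhex against the macrophage sum (exact p = 0.7). Lmo2 was lower without overlap against the endothelial sum without Pecam1 (0.431, exact p = 0.1) and against the macrophage sum under quantile normalization (0.471, exact p = 0.1).

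Bcl11a was 56.1, 13.0 and 20.2% of the summed B cell markers in irradiated thymus and 6.01, 6.49 and 5.82% in control thymus, 4.02 times as high without overlap (exact p = 0.1). The ratio was 3.13 without Cd79b, the most abundant B cell marker in control thymus, and 3.76 under quantile normalization, without overlap in either. Relative to the summed dendritic markers, Bcl11a was 6.61, 1.55 and 1.39% in irradiated libraries and 2.07, 1.57 and 1.68% in control libraries, which overlapped (exact p = 1). Bst2, the most abundant dendritic marker in control thymus, made up most of this sum in irradiated replicates 2 and 3. Without Bst2, Bcl11a was 9.31, 4.72 and 4.63% in irradiated libraries and 2.96, 2.41 and 2.32% in control libraries. That was 2.31 times as high without overlap (exact p = 0.1). Mef2c was 10.5, 17.4 and 15.7% of the B cell sum in irradiated thymus and 5.87, 10.2 and 8.37% in control thymus, without overlap (ratio 1.79, exact p = 0.1). The groups overlapped without Cd79b (1.40, exact p = 0.2) and under quantile normalization (1.61, exact p = 0.3). Against the dendritic sum Mef2c was 0.613 of the control ratio, with overlap (exact p = 0.2), and under quantile normalization it was 0.359 without overlap (exact p = 0.1).

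Meis1 was 17.1, 4.94 and 4.65% of the endothelial sum in irradiated libraries and 5.90, 3.45 and 4.42% in control libraries (exact p = 0.4). Against fibroblast markers it was 2.33, 1.71 and 1.57% in irradiated libraries and 3.04, 1.33 and 2.29% in control libraries (exact p = 0.7). Both overlapped, so Meis1 RNA did not separate the groups once set against the fibroblast sum, whereas irradiated replicate 1 was clearly the highest against the endothelial sum. Without Pecam1, Meis1 was 25.7, 6.05 and 5.63% of the endothelial sum in irradiated libraries and 21.8, 15.6 and 19.0% in control libraries. There irradiated replicate 1 was only a little above control replicate 1, and the ratio was 0.513 with overlap (exact p = 0.4). Under quantile normalization Meis1 was lower against the fibroblast sum without overlap (0.611, exact p = 0.1). No ratio was computed for Hoxa9, which was listed at 0 in 2 control libraries.

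**Figure D5:**
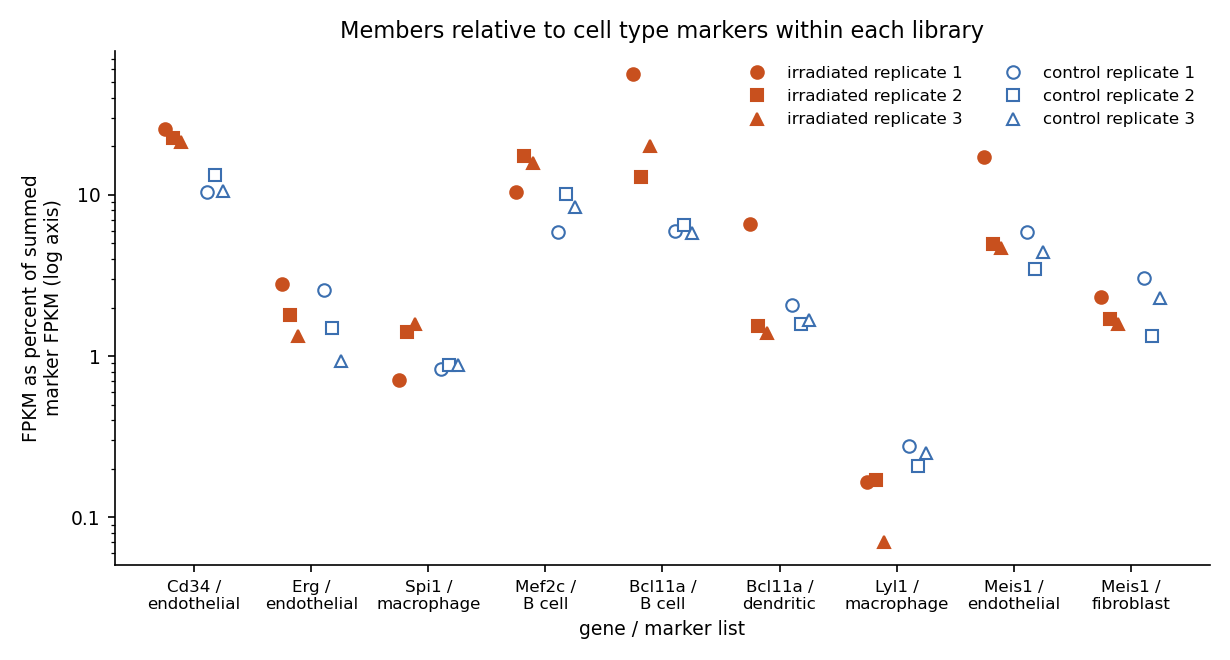
FPKM of a gene as a percent of the summed FPKM of a list of cell type markers within each library, on a log axis, for 9 of the 14 pairs. Filled symbols are irradiated and open symbols control libraries. The groups do not overlap for Cd34 over endothelial, Mef2c and Bcl11a over B cell and Lyl1 over macrophage markers, with Lyl1 the one that is lower in irradiated libraries. The separation of Cd34 ended without Pecam1 and that of Mef2c without Cd79b.

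The second deposited table, of lncRNA transcripts, also lists transcripts of 8 of the 10 genes, 16 transcripts in all, which were summed by gene and tested over that whole table (12963 genes, of which 17.7% were called higher and 23.0% lower). Of the 7 that could be tested, 4 rose and 0 fell. The transcripts of Meis1 in this table had 4.74, 4.21 and 5.00 FPKM in irradiated thymus and 1.24, 0.486 and 0.783 FPKM in control thymus, with a log2 fold change of 2.42 (limma adjusted p of 0.00144). Those of Cd34, Spi1 and Bcl11a rose by 2.02, 2.04 and 1.27 (adjusted p of 0.0046, 0.00957 and 0.0112), and those of Hhex, Lmo2 and Mef2c did not pass (adjusted p of 0.0777, 0.0585 and 0.128). Those of Hoxa9 were listed at 0 in every library. Where such a transcript shares exons with the mRNA, reads of both can be split by the authors' counting, so these values are not independent of the mRNA values.

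A further 35 genes had transcripts of that table within 50 kb of the 10 genes. Summed over all their transcripts, 18 were tested, 5 rose and 1 fell, against 17.7% called higher and 23.0% lower over that whole table. Among the 18 tested, 8 are of the type lncRNA, and all 5 that rose are among these 8. For 3 of the 35, some transcripts lay outside the 50 kb. Counting only transcripts within it, which was chosen after the values were seen, 17 were tested, 4 rose and 1 fell. A330023F24Rik, a lncRNA gene 15096 bp from Cd34 on the same strand (chr1:194976375-195037904), had 10.4, 8.43 and 7.33 FPKM in irradiated thymus and 1.58, 1.07 and 1.27 FPKM in control thymus, a log2 fold change of 2.65 (limma adjusted p of 0.000321) over its 4 transcripts. The 2 transcripts within 50 kb of Cd34 gave 3.95, 2.77 and 2.98 FPKM in irradiated thymus and 0.739, 0.554 and 0.503 FPKM in control thymus, a log2 fold change of 2.25 (limma adjusted p of 0.00108). The fifth gene called higher, Gm31641, has a transcript 3493 bp from Erg on the same strand that was listed at 0 in every library. Its call (3.51, limma adjusted p of 0.000726) came from its other transcript, which lies further from Erg than 50 kb.

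At Meis1, 8430419K02Rik (5508 bp away on the same strand) rose by 2.40 (limma adjusted p of 0.00542), with 1.05, 0.456 and 0.417 FPKM in irradiated libraries and 0.0841, 0.0230 and 0 FPKM in control libraries. Its control values were under the filter of 0.1 FPKM, so it passed only through its irradiated libraries. Gm16141, which lies inside Meis1 on the opposite strand, rose by 2.10 (adjusted p of 0.0135 from limma), and reads of Meis1 and of this antisense gene cannot be told apart without strand. In the Hoxa cluster, Gm15050, 49041 bp from Hoxa9 on the opposite strand, had 2.21, 2.24 and 1.97 FPKM in irradiated thymus and 0.0597, 0.702 and 0.321 FPKM in control thymus, a log2 fold change of 2.57 (limma adjusted p of 0.00764), although Hoxa9 itself was near 0. The 1 entry that fell was a transcript of the mitotic kinesin gene Kif11 near Hhex (-2.59, limma adjusted p of 0.00221), at 0.0642 to 0.239 FPKM in irradiated thymus and 1.08 to 1.30 FPKM in control thymus.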

How the data were processed

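Polyadenylated RNA from whole mouse thymus was sequenced in 3 irradiated and 3 control libraries, grouped by their labels. The authors deposited 1 FPKM value per library for mRNA genes and for lncRNA transcripts, together with a log2 fold change, p-value and adjusted p-value. DESeq2 1.10.1 is named per the submitters' processing notes. Which aligner, counter, strand setting or annotation was used is not given in the sources used here. For mRNA transcripts found in GENCODE M21 (GRCm38), 99.8% had the same start and end, and coordinates are given on that build (Lyl1 from the deposited table alone). All transcript lines of an mRNA gene repeat 1 set of values, so 1 value per gene was used, and lncRNA values were summed to genes after dropping 62 lines of overflow text.

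From these, log2(FPKM + 0.1) was compared with limma 3.58.1 (R 4.3.3; trend, group as the only term) over genes with a mean of at least 0.5 FPKM (for the lncRNA table, of at least 0.1 FPKM), with Benjamini-Hochberg adjustment over all genes of a table and a threshold of 0.05. Fold changes on this scale understate changes of low genes. Depth was estimated from the step between low FPKM values, and counting error limits genes near 0. The alternatives were other pseudocounts (0.01 and 1), no filter, a filter of at least 1 FPKM in 3 libraries, quantile, median-ratio and summed-FPKM scaling, the replicate number as a block, and leaving out each library. Chosen after seeing the data were marker sums without their most abundant control marker, ratios from quantile-normalized values, and lncRNA-table sums over transcripts within 50 kb only.

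The members and all gene lists were chosen with earlier results of these data known, so counts over them are descriptions. Named were all members, the tested relatives and Hoxa genes, up to 4 genes per direction with the smallest adjusted p in each other list, and 8 lncRNA-table entries. Tal1, Hoxa6, Hoxa10, Hoxa11, Hoxa13, Pbx4, Tcf3, Notch1, Kit, Flt3, Il7r, Il2ra, Pecam1, Gm16141 and the lncRNA-table values of Bcl11a, Hhex, Lmo2 and Mef2c were added after their values were seen. A few genes are not reported here, and the Hoxa and partner lists were counted without them, a change made after the results were known.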

Additional observations from a re-analysis of the deposited data

How the results depend on the processing

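Under quantile normalization 5 members were higher, against 9 with the values as deposited, and 8 to 9 when any library was left out. Of all genes, quantile normalization gave 3501 higher and 4403 lower, and median-ratio scaling gave 4558 lower. Quantile normalization also changed the counts of several lists: relatives higher 2 (as deposited 4), Hoxa genes lower 1 (0), complex partners higher 2 (4), commitment genes higher 1 (2), neutrophil markers lower 1 (0), B cell markers lower 6 (2), dendritic markers lower 2 (0), airway markers higher 3 (6) and skeletal muscle markers higher 2 (6). Median-ratio scaling gave 1 Hoxa gene lower and 1 commitment gene higher. The filter of 1 FPKM in 3 libraries gave 2 complex partners and 2 muscle markers higher, and a pseudocount of 1 gave 3 muscle markers higher. When single libraries were left out, complex partners higher ranged over 2 to 4 (2 without irradiated replicate 2), commitment genes higher over 1 to 2, Hoxa genes lower over 0 to 1, neutrophil markers higher over 2 to 7 (7 without irradiated replicate 1, as deposited 3), B cell markers lower over 0 to 3, thymic epithelial markers lower over 0 to 1 and muscle markers higher over 3 to 7. Signs turned for Hoxa5 (-0.18), Spic (-0.21), Flt3 (-0.23), Kit (-0.092) and Il7r (-0.0086) under quantile normalization, for Lmo4 (-0.20), Notch1 (-0.23), Pecam1 (-0.26), Il7r (-0.22) and Il2ra (-0.0030) under median-ratio scaling, for Il7r without irradiated replicate 1 (leaving out libraries gave -0.500 to 0.514), for Pecam1 without irradiated replicate 2 (-0.0392 to 0.327), for Meis3 under quantile normalization (-0.56), median-ratio scaling (-0.27) and without control replicate 1 (leaving out libraries gave -0.0515 to 0.258), and for the lncRNA-table entry Rapsn with a pseudocount of 0.01 (0.24). None of these passed the test except Il7r without irradiated replicate 1, which was called lower. Without single libraries the log2 ratios to summed markers that changed sign ranged over -0.0606 to 0.668 (Erg, endothelial), -0.23 to 1.40 (Hhex, macrophage), -0.26 to 0.86 (Bcl11a, dendritic), -0.486 to 0.0643 (Lmo2, macrophage), -0.95 to 0.22 (Lyl1, endothelial) and -0.517 to 0.0785 (Meis1, fibroblast). Without the most abundant control marker these log2 ratios turned to -0.64 (Cd34, endothelial), -1.38 (Erg, endothelial), -1.21 (Lmo2, endothelial), -0.96 (Meis1, endothelial) and 0.041 (Mef2c, dendritic), and under quantile normalization to -0.73 (Erg, endothelial), -0.11 (Spi1, macrophage), -1.42 (Hhex, macrophage) and -0.25 (Bcl11a, dendritic). The cause of these changes was not tested, apart from fewer genes or libraries entering some fits. Hhex and other low genes have no value under the filter of 1 FPKM.

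No pairing of libraries by replicate number was seen, though 3 libraries per group cannot exclude it. Deviations from the group means correlated at 0.06, -0.04 and 0.05 for equal numbers and at -0.10 to 0.06 for unequal numbers. Not every library correlated best with its own number. With the replicate number as a block, 5693 genes were higher and 2662 lower, all 9 members kept their calls, and 1 B cell marker was lower instead of 2.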
